A study of Mus musculus with 20 samples.

Results

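The peaks of ETS1 binding and of FAIRE open chromatin were compared in CD4+/CD8+ double-positive thymocytes. All 2359 peaks of the deposited ETS1 list and all 11176 peaks of the FAIRE list were taken, 13535 of the 270514 peaks in the 16 lists of the series. A peak was called shared if it had at least 1 bp in common with a peak of the other list, and alone otherwise. This gave 1089 shared and 1270 lone ETS1 peaks, and 1119 shared and 10057 lone FAIRE peaks. Both samples came from thymus of C57BL/6 mice, and the labels used here name no transgene, treatment or mutation for either. The FAIRE sample's protocol adds that its mice were wild-type and 5 to 6 weeks old, and the ETS1 labels used here give neither detail. ETS1 was immunoprecipitated with the C-20 antibody after 10 sonication cycles, and FAIRE used 14 cycles and no antibody. Chromatin immunoprecipitation lists of 14 other targets, made from the same kind of cells, served to describe the 2 sets of peaks.

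Double-positive thymocytes are the stage at which developing T cells carry both CD4 and CD8 and are selected on their T-cell receptor. ETS1 is a winged-helix transcription factor of the ETS family that is abundant in lymphocytes, binds promoters and enhancers of T-cell genes and is needed for normal thymocyte development. FAIRE extracts crosslinked, sheared chromatin with phenol. DNA with few nucleosomes stays in the aqueous phase, so sequencing it maps open regulatory DNA whichever protein is bound there. CBP is a histone acetyltransferase and coactivator. TBP nucleates the preinitiation complex that loads RNA polymerase II (Pol II). H3K4me3 is a histone mark of active promoters, and H3K4me1 is found around promoters and at many enhancers.

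With a single list per target, replicate error could not be measured and no p-value was computed. Shares carry 95% Wilson intervals and differences between shares carry 95% Newcombe intervals. Both cover counting error only and treat peaks as independent, which neighbouring peaks are not. Differences whose interval left out 0 are named as called. The read depth behind the lists is unknown, so a missing peak may be a peak under the authors' threshold. The cell type was taken from the labels and was not checked against marker genes, as genes of mm9 were not mapped.

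A large minority of ETS1 peaks lay in open chromatin, whereas most open chromatin had no ETS1 peak. FAIRE overlapped 46.2% of ETS1 peaks (44.2 to 48.2), and ETS1 overlapped 10.0% of FAIRE peaks (9.47 to 10.6). The overlap was close to a matching of single peaks. Of 1138 overlapping pairs, 1005 joined an ETS1 peak and a FAIRE peak that touched nothing else in the other list. Only 47 ETS1 peaks touched 2 or more FAIRE peaks, and 19 FAIRE peaks touched 2 or more ETS1 peaks. By covered length, 35.8% of the 302480 bp under ETS1 peaks and 7.76% of the 1394570 bp under FAIRE peaks were in common. With the FAIRE list cut to its 2359 peaks of highest area, the shares were 16.0% of ETS1 and 15.6% of FAIRE peaks.

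The overlap with FAIRE rose with ETS1 peak area, which sums the authors' track signal across a peak. Area served only to rank peaks within a list. In the lowest decile of ETS1 area, 69 of 236 peaks were shared, or 29.2% (23.8 to 35.3). Deciles 2 to 6 stood at 33.9%, 36.9%, 33.9%, 40.3% and 44.1%. Deciles 7 to 9 stood at 48.7%, 56.8% and 63.6%. In the highest decile, of 235 peaks, 74.5% were shared (68.5 to 79.6). The highest decile exceeded the lowest by 45.2 points (36.7 to 52.7), and its interval did not touch that of decile 8 or any lower decile. Neighbouring deciles had overlapping intervals throughout.

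Area and width moved together, with a median width of 30 bp in the lowest and 240 bp in the highest decile. A wide peak has more room to touch another peak. The gradient was 39.7 points when every peak was replaced by a 200 bp window on its midpoint, and 38.4 points (29.8 to 46.3) when peaks were ranked by mean height, area divided by width. Peaks of greater mean height were also wider, with median widths of 45 bp in the lowest and 230 bp in the highest height decile. With deciles of area taken inside each of 5 equal groups by peak width, the gradient was 18.7 points (9.71 to 27.2). It was 23.5 points (14.8 to 31.8) when the FAIRE peak had to cover 50% of the ETS1 peak, and 26.0 points with the FAIRE list cut to the length of the ETS1 list.

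**Figure D1:**
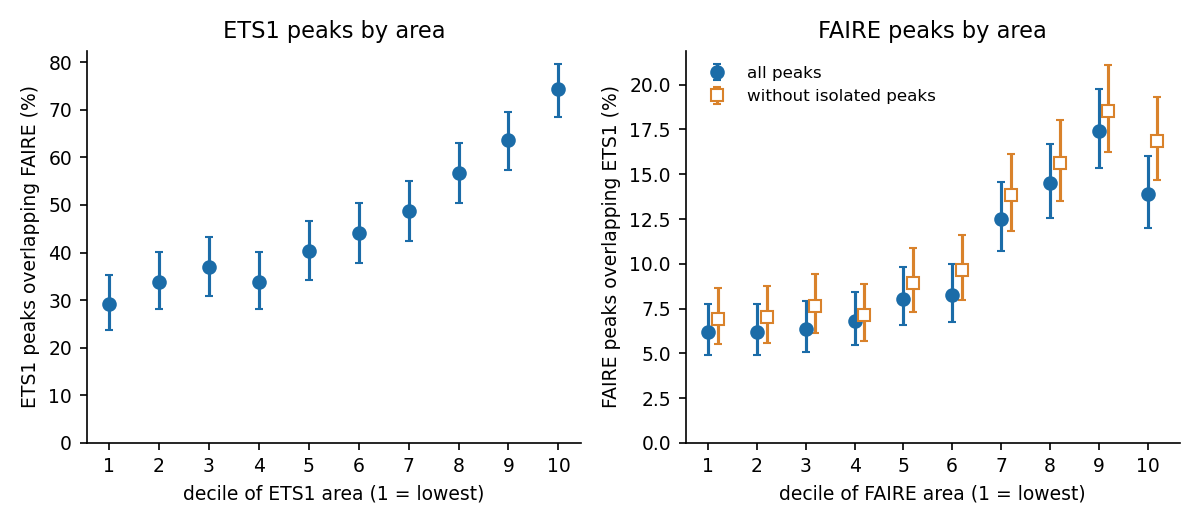
Share of ETS1 peaks overlapping FAIRE by decile of ETS1 area (left, %) and share of FAIRE peaks overlapping ETS1 by decile of FAIRE area (right, %, another axis range), with 95% Wilson intervals. The ETS1 curve ends at 74.5%; the FAIRE curve peaks at 17.4% in decile 9, and open squares leave out FAIRE peaks isolated from other lists.

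The overlap also rose with ETS1 area within each of the marked H3K4 classes. ETS1 peaks were sorted into 1448 that overlapped H3K4me3, 778 that overlapped H3K4me1 but no H3K4me3, and 133 with neither mark. Among H3K4me3-marked ETS1 peaks, split into 5 equal groups by area, 39.7% were shared in the lowest group and 72.7% in the highest, 33.0 points apart (25.1 to 40.3). Among H3K4me1-only ETS1 peaks it was 28.8% and 60.0%, 31.2 points apart (20.3 to 41.0). The difference between these gradients was not tested. H3K4me1-only peaks were 27.7% of shared and 37.5% of lone ETS1 peaks, and peaks with neither mark were 3.40% and 7.56%.

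On the FAIRE side the relation with area was weaker and depended on the processing. ETS1 overlapped 6.17% of FAIRE peaks in the lowest decile of FAIRE area (4.91 to 7.74), 17.4% in decile 9 (15.3 to 19.8) and 13.9% in decile 10 (12.0 to 16.0). The highest decile exceeded the lowest by 7.70 points (5.24 to 10.2). That difference turned to -3.36 points (-5.63 to -1.12) with deciles taken inside the 5 groups by width, to -13.6 points (-18.8 to -8.76) within the 2359 FAIRE peaks of highest area, and to 0.547 points (-2.13 to 3.24) in the upper 50% of both lists. It was 13.4 points (11.5 to 15.6) when a FAIRE peak had to cover 50% of the ETS1 peak, and 4.75 points (2.03 to 7.48) when peaks within 500 bp counted as shared.

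Some of the strongest FAIRE peaks stood apart from every other list. FAIRE peaks with no peak of the 14 other targets within 10 kb numbered 1208 (10.8% of the list), and only 1 of them was shared with ETS1. These isolated peaks, a class defined after seeing the data, made up 6.35% of decile 9 and 16.2% of decile 10. Weak peaks were often isolated too, at 12.3% of decile 1 and 13.8% of decile 2. Of the 144 FAIRE peaks on chromosome Y, 137 were isolated in this way. All 98 FAIRE peaks of 500 bp or wider lacked ETS1, which overlapped only 10.0% of the whole FAIRE list. Of these 98, 87 (88.8%) overlapped none of the 14 other lists, against 30.2% of all FAIRE peaks. The track name of the FAIRE list records no removal of artefact regions, unlike that of every other list, and the part of this in the result was not tested. Without isolated peaks, decile 9 stood at 18.6%, decile 10 at 16.9% and the decile difference at 9.95 points (7.14 to 12.8).

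Where ETS1 and FAIRE overlapped, their centres lay close together. The median distance between midpoints was 30 bp (order-statistic 95% interval 25 to 30), with quartiles of 15 and 50 bp. Of the 1089 shared ETS1 peaks, 448 (41.1%) had a FAIRE midpoint within 20 bp, 851 (78.1%) within 50 bp and 1062 (97.5%) within 100 bp. The ETS1 midpoint fell inside the FAIRE peak in 80.9% and the FAIRE midpoint inside the ETS1 peak in 80.3% of cases. Peak ends lay on bins of 10 bp, and the peaks that overlapped were themselves narrow, which bounds these distances from above. The files give no strand for the sites, so the offset has no direction.

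Distances to the ETS1 midpoint were as short for the coactivator and for TBP as for FAIRE. At 436 sites where an ETS1 peak, its FAIRE partner and CBP peaks overlapped, the median distance was 30 bp from ETS1 to FAIRE, 30 bp from ETS1 to CBP and 30 bp from FAIRE to CBP. The 642 sites with TBP gave 30 bp for all 3 distances as well. At 521 sites with total Pol II, ETS1 and FAIRE each lay a median of 55 bp from the Pol II midpoint, and ETS1 and FAIRE were the closest pair at 302 of them. Over all ETS1 peaks with total Pol II, whether open or not, the median distance to Pol II was also 55 bp (50 to 60). Wider peaks can overlap at larger distances, and median widths over the whole lists were 140 bp for total Pol II, 120 bp for TBP and 80 bp for CBP. The part of width in the Pol II distance was not tested. Offsets differed little between chromatin classes, with medians of 30 bp in H3K4me3 and 27.5 bp (25 to 30) in H3K4me1 only. The 37 shared ETS1 peaks with neither mark had a median of 40 bp (25 to 60).

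Shared peaks were wider than lone peaks in both lists. Shared ETS1 peaks had a median width of 150 bp (140 to 150; quartiles 90 and 190) and lone ETS1 peaks 105 bp (100 to 110; quartiles 60 and 150). Shared FAIRE peaks had a median of 140 bp (130 to 140; quartiles 90 and 180) and lone FAIRE peaks 110 bp (100 to 110; quartiles 60 and 140). Widths of 200 bp or more were found in 25.0% of shared and 8.66% of lone ETS1 peaks. The ETS1 peak was the wider in 536 pairs and the narrower in 500, with a median width ratio of 1. Since wide peaks overlap more easily, part of this is set by the overlap rule. Within the 2359 FAIRE peaks of highest area the order was not kept, at 200 bp for shared and 210 bp for lone peaks.

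**Figure D2:**
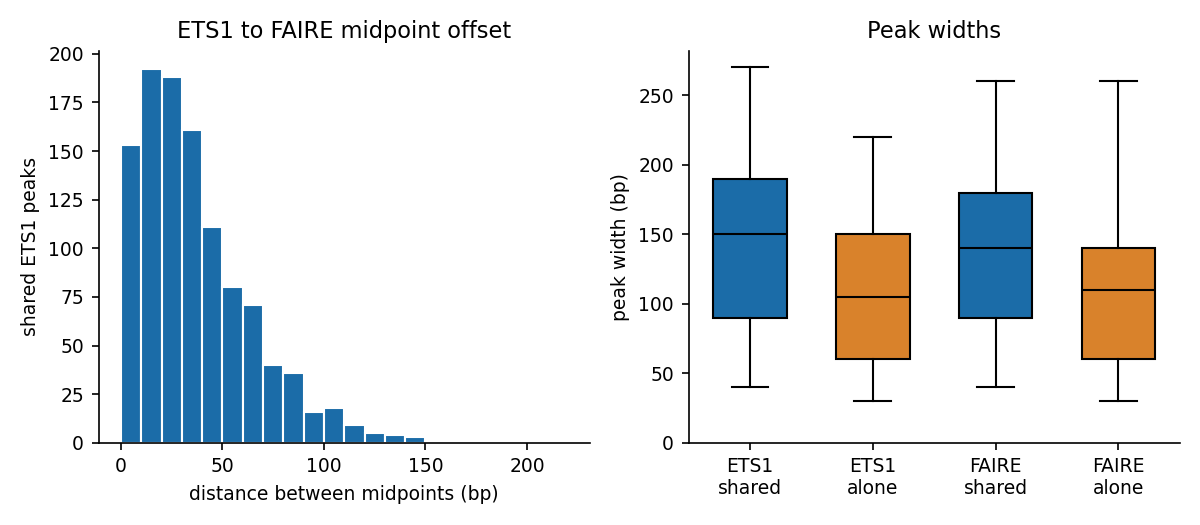
Left, number of shared ETS1 peaks by distance between ETS1 and FAIRE midpoints (bp, bins of 10 bp). Right, peak width (bp) of shared (blue) and lone (orange) peaks, with the median, quartiles (box) and 5th to 95th percentiles (whiskers); the medians are 150, 105, 140 and 110 bp.

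ETS1 peaks outside FAIRE were mostly not near misses. The nearest FAIRE peak lay a median of 16655 bp away (13980 to 19800). Of the 1270 lone ETS1 peaks, 69 (5.43%) had a FAIRE peak within 100 bp, 142 (11.2%) within 500 bp and 197 (15.5%) within 1000 bp. Counting peaks within 500 bp as shared raised the ETS1 share to 52.1% and the FAIRE share to 12.0%. Lone ETS1 peaks in H3K4me3 had FAIRE within 1000 bp in 20.1% of cases, against 7.98% of H3K4me1-only ones and 19.8% of the 96 with neither mark. Only 58 lone ETS1 peaks had a shared ETS1 peak within 1000 bp. Lone FAIRE peaks lay much farther from ETS1, at a median of 144410 bp, and 3.07% of them had an ETS1 peak within 1000 bp. The ETS1 list is shorter, which lengthens that distance.

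**Figure D3:**
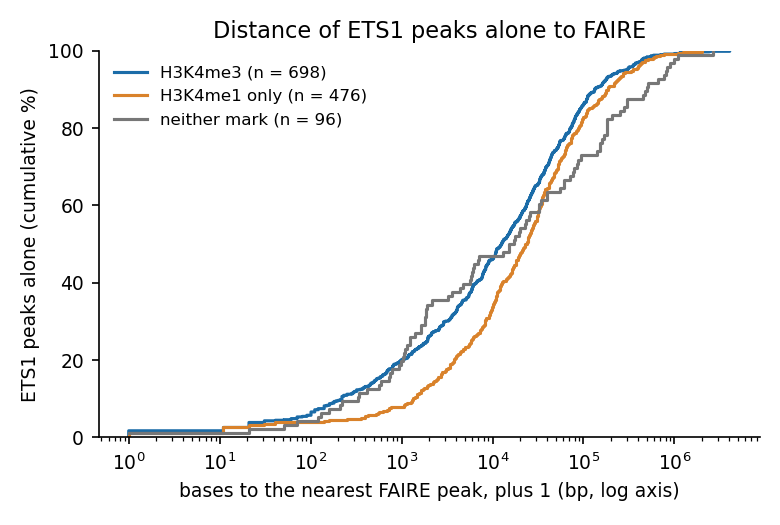
Cumulative share (%) of the 1270 lone ETS1 peaks against the bases between each and the nearest FAIRE peak, plus 1 (log axis), by H3K4 class. At 1000 bp the H3K4me3 curve has reached 20.1% and the H3K4me1-only curve 7.98%.

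CBP and the initiation machinery were found more often at ETS1 peaks in open chromatin. CBP peaks lay at 42.2% of shared (39.3 to 45.2) and 17.5% of lone ETS1 peaks (15.5 to 19.7), a difference of 24.8 points (21.1 to 28.3). TBP peaks lay at 60.0% (57.0 to 62.8) and 35.2% (32.6 to 37.9), 24.8 points apart (20.8 to 28.6). Total Pol II lay at 50.3% (47.4 to 53.3) and 30.9% (28.5 to 33.5), 19.4 points apart (15.4 to 23.2). Each of these 3 differences had the same sign on all 19 autosomes. Matching on decile of ETS1 area left 19.6 points for CBP, 20.2 for TBP and 15.7 for total Pol II. Matching on H3K4 class and on 5 groups by area together, added after seeing the data, left 19.9, 17.0 and 11.9 points. With the FAIRE list cut to 2359 peaks the CBP difference was 38.2 points (32.8 to 43.3).

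H3K4me3 differed less between shared and lone ETS1 peaks, and H3K4me1 was not shown to differ. H3K4me3 overlapped 68.9% of shared (66.1 to 71.6) and 55.0% of lone ETS1 peaks (52.2 to 57.7), 13.9 points apart (10.0 to 17.7). That difference was 6.26 points (2.33 to 10.2) with the upper 50% of the H3K4me3 list. H3K4me1 overlapped 85.3% of shared (83.1 to 87.3) and 83.7% of lone peaks (81.6 to 85.6), a difference of 1.61 points (-1.34 to 4.52). H3K4me1 thus lay at most ETS1 peaks of both sets. The sign of the H3K4me1 difference changed with the processing, and no setting gave an interval that excluded 0.

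**Figure D4:**
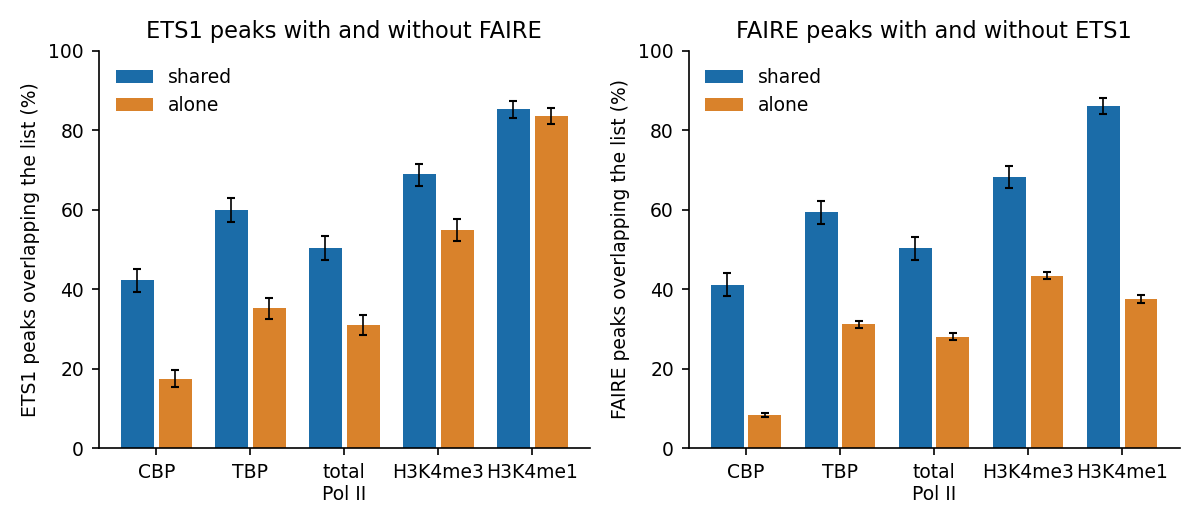
Share (%) of ETS1 peaks (left) and FAIRE peaks (right) that overlapped each of 5 lists, for peaks shared with the other of the pair (blue) and alone (orange), with 95% Wilson intervals. H3K4me1 stands at 85.3% and 83.7% of ETS1 peaks but at 86.1% and 37.6% of FAIRE peaks.

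FAIRE peaks showed another order, led by H3K4me1. H3K4me1 overlapped 86.1% of FAIRE peaks with ETS1 (84.0 to 88.0) and 37.6% of those without (36.6 to 38.5), a difference of 48.6 points (46.2 to 50.7). Within FAIRE peaks that overlapped H3K4me3, H3K4me1 was at 83.8% with and 46.7% without ETS1, 37.1 points apart (34.0 to 40.0). CBP lay at 41.1% (38.3 to 44.0) and 8.25% (7.73 to 8.81) of FAIRE peaks, 32.9 points apart (30.0 to 35.8). TBP lay at 59.4% and 31.2% (28.2 points, 25.2 to 31.2), total Pol II at 50.3% and 28.1% (22.2 points, 19.2 to 25.3) and H3K4me3 at 68.3% and 43.4% (24.8 points, 21.9 to 27.7). Over the 19 autosomes, all 5 differences were positive on each, except that of total Pol II on 1 autosome.

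Matching reduced the TBP and Pol II differences of FAIRE peaks more than that of CBP. Matching on H3K4 class left 29.0 points for CBP (26.0 to 32.0), 13.1 for TBP (10.2 to 16.0) and 7.73 for total Pol II (4.87 to 10.6). Adding 5 groups by FAIRE area left 26.2, 9.71 and 4.73 points. Matching on FAIRE area alone left the H3K4me1 difference at 49.0 points. The H3K4me3 difference was 8.25 points (5.26 to 11.3) with the upper 50% of the H3K4me3 list. Without isolated FAIRE peaks the 5 differences were 43.5 points for H3K4me1, 31.8 for CBP, 24.0 for TBP, 19.0 for H3K4me3 and 18.4 for total Pol II.

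FAIRE peaks outside both H3K4 marks almost lacked ETS1. ETS1 overlapped 14.9% of the 5132 FAIRE peaks in H3K4me3 (13.9 to 15.9) and 15.7% of the 2065 in H3K4me1 only (14.2 to 17.3). It overlapped 31 of the 3979 FAIRE peaks with neither mark, or 0.779% (0.549 to 1.10). Those 3979 peaks were 35.6% of the FAIRE list. Of the 31, CBP overlapped 35.5%, TFIIB 45.2% and Taf1 25.8%, against 1.77%, 4.64% and 0.937% of the 3948 without ETS1. Total Pol II (16.1% against 2.96%) and serine 2 phosphorylated Pol II (9.68% against 0.253%) were also called as higher. The intervals of TBP (12.9% against 5.12%), TFIIE (6.45% against 3.62%) and serine 5 phosphorylated Pol II (6.45% against 2.58%) included 0. So did that of H3K36me3 (3.23% against 3.19%), and TFIIH, TFIIA and TFIIF were found at none of the 31. With the FAIRE list cut to 2359 peaks, the intervals for CBP (13.2 points, -0.591 to 52.9) and total Pol II (10.6 points, -3.18 to 50.4) included 0 as well. FAIRE peaks that overlapped none of the 14 other targets numbered 3375, and 9 of them had ETS1. ETS1 peaks with neither mark carried CBP, TFIIB and Taf1 with and without FAIRE. CBP lay at 37.8% of shared and 26.0% of lone ones, TFIIB at 48.6% and 31.25%, and Taf1 at 24.3% and 22.9%, with no difference called.

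The higher share of CBP, TBP, total Pol II, TFIIB and TFIIE at open ETS1 peaks held in both marked classes. In H3K4me3, CBP lay at 44.4% of shared (40.9 to 48.0) and 18.8% of lone ETS1 peaks (16.0 to 21.8). TBP lay at 71.5% and 50.3% there, and total Pol II at 63.7% and 49.0%. In H3K4me1 only, CBP lay at 37.4% of shared (32.1 to 43.0) and 13.9% of lone ETS1 peaks (11.0 to 17.3), TBP at 36.4% and 19.3%, and total Pol II at 20.2% and 9.03%. The differences in H3K4me1-only peaks were 23.6 points for CBP (17.3 to 29.8), 17.1 for TBP (10.6 to 23.6) and 11.2 for total Pol II (6.10 to 16.6). Among the 133 ETS1 peaks with neither mark, the CBP difference was 11.8 points (-4.98 to 29.6), and those of TBP and total Pol II were 14.8 points (3.53 to 30.2) and 16.0 points (2.84 to 32.3). These last calls were lost under other settings. The TBP difference was 8.84 points (-2.36 to 27.3) under the 50% rule and 32.4 points (-4.49 to 63.0) in the upper 50% of both lists. That of total Pol II was 8.84 points (-2.86 to 22.6) within 500 bp and 8.12 points (-4.25 to 24.6) with 200 bp windows.

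**Figure D5:**
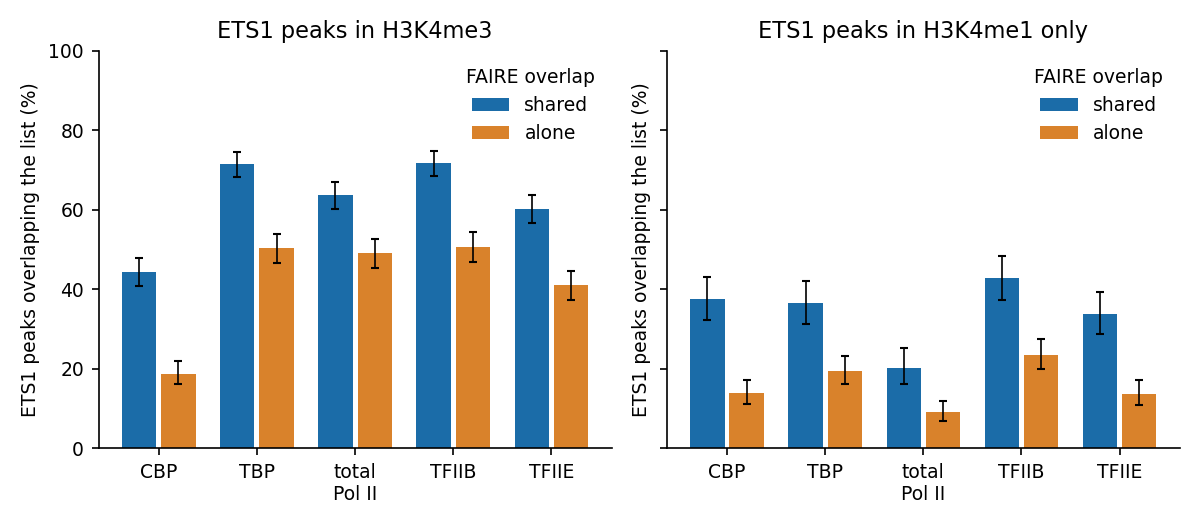
Share (%) of ETS1 peaks overlapping CBP, TBP, total Pol II, TFIIB and TFIIE, for peaks shared with FAIRE (blue) and alone (orange), in H3K4me3 (left) and in H3K4me1 without H3K4me3 (right), with 95% Wilson intervals. In each of the 5 lists and both classes the shared bar is higher, and total Pol II is lowest on the right, at 20.2% and 9.03%.

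TFIIB, which bridges TBP and Pol II, and TFIIE, which recruits TFIIH, moved with TBP. TFIIB lay at 62.9% of shared and 39.0% of lone ETS1 peaks, 23.9 points apart (19.9 to 27.8). TFIIE lay at 51.5% and 27.6%, 23.9 points apart (20.0 to 27.7). Pol II phosphorylated on serine 5, the form near initiation, lay at 31.3% and 15.9% (15.4 points, 12.0 to 18.8). Smaller differences were called for TFIIF (9.83% against 3.70%), TFIIH (10.7% against 6.38%) and TFIIA (6.80% against 3.54%). In H3K4me1-only ETS1 peaks the intervals for serine 5, TFIIF, TFIIH and TFIIA included 0, and TFIIA stood at 1.99% of shared and 3.78% of lone peaks there. Taf1 (3.58% and 3.62%), serine 2 phosphorylated Pol II (1.38% and 1.18%) and the gene-body mark H3K36me3 (0.643% and 0.787%) were not called as different over all ETS1 peaks.

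Read from the other side, the share of open ETS1 peaks was highest, among 8 combinations, where CBP, TBP and total Pol II met. FAIRE overlapped 67.4% of ETS1 peaks with CBP (63.8 to 70.9) and 37.5% of those without (35.2 to 39.9). Of ETS1 peaks with CBP, TBP and total Pol II together, 244 of 306 were shared with FAIRE, or 79.7% (74.9 to 83.9). Of the 873 with none of the 3, 29.7% were shared (26.7 to 32.8). Peaks with TBP and Pol II but no CBP stood at 51.9% (47.4 to 56.3), those with CBP alone at 52.8% (46.4 to 59.2), and those with CBP and TBP at 72.2% (62.5 to 80.1). CBP with Pol II but no TBP, at 50.0% (36.6 to 63.4), was no higher than CBP alone, and TBP alone stood at 41.6% (35.2 to 48.2). Total Pol II alone stood at 29.0% (21.2 to 38.2), within the interval of peaks with none. In the lower 50% of ETS1 area the shares were 73.8% with all 3 and 24.9% with none, and in the upper 50% they were 82.0% and 38.2%.

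General factors were also more frequent at FAIRE peaks with ETS1. TFIIB lay at 62.9% of FAIRE peaks with ETS1 and 23.9% of those without, 39.0 points apart (36.0 to 41.9), and TFIIE at 52.4% and 21.6%, 30.7 points apart (27.7 to 33.7). Serine 5 phosphorylated Pol II lay at 31.2% and 17.6%, TFIIF at 10.2% and 1.20%, TFIIH at 10.2% and 4.14%, and TFIIA at 6.61% and 4.00%, each difference called. For TFIIA the interval included 0 within each H3K4 class, with 8.90% and 7.83% in H3K4me3 (-0.930 to 3.43 points). H3K36me3 was lower, at 0.626% with and 1.65% without ETS1 (-1.03 points, -1.44 to -0.326). Only 7 peaks with ETS1 had this mark, 126 of the lone peaks that had it lay outside both H3K4 marks, and within each H3K4 class the interval included 0, with a higher value with ETS1 in H3K4me3 (0.654% against 0.412%). In H3K4me3, TBP lay at 70.5% with and 59.8% without ETS1 and total Pol II at 64.3% and 57.7%. In H3K4me1 only, TBP lay at 37.7% and 18.4% and total Pol II at 20.7% and 10.9% of FAIRE peaks. With the FAIRE list cut to 2359 peaks, shared and lone FAIRE peaks differed in total Pol II by 1.83 points (-4.14 to 7.23) in H3K4me3 and 4.03 points (-6.88 to 15.6) in H3K4me1 only, so neither was called. CBP differed by more than both in each class, at 42.7% and 12.4% in H3K4me3 and 38.0% and 12.5% in H3K4me1 only. Whether the TBP and Pol II differences differ between the classes was not tested.

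Among FAIRE peaks the combinations with CBP stood out. ETS1 overlapped 42.1% of FAIRE peaks with CBP and TBP (34.7 to 49.9), 38.4% with CBP, TBP and total Pol II (34.7 to 42.2), 33.0% with CBP and Pol II (24.0 to 43.3) and 29.3% with CBP alone (25.1 to 34.0). It overlapped 11.9% of those with TBP and Pol II but no CBP (10.6 to 13.3) and 4.34% of those with none (3.87 to 4.87). TFIIF, a Pol II partner with a short list, marked few FAIRE peaks, but 114 of these 235 had ETS1, or 48.5% (42.2 to 54.9). All 5 lists of CBP, TBP, total Pol II, H3K4me3 and H3K4me1 met at 16.6% of shared and 3.54% of lone ETS1 peaks, and at 15.9% of shared and 1.71% of lone FAIRE peaks.

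Chromosome X differed from the autosomes. There 3 of 37 ETS1 peaks were shared, or 8.11% (2.80 to 21.3), against a range of 38.0% to 60.3% over the 19 autosomes. Of the FAIRE peaks on chromosome X, 3 of 183 were shared, or 1.64% (0.559 to 4.71), against 7.25% to 14.1%. ETS1 peaks on chromosome X were also weaker and less often carried an H3K4 mark. Their median area stood at percentile 16.1 of the list and their median width was 50 bp. Neither H3K4 mark was present at 24 of the 37 (64.9%), against 4.49% of ETS1 peaks on autosomes. Taf1 was present at 8 (21.6%), against 3.24% on autosomes. CBP was nearly as frequent, at 27.0% against 28.8%, whereas TBP (13.5% against 47.3%) and total Pol II (24.3% against 40.2%) were lower. FAIRE peaks on chromosome X were also mostly outside both H3K4 marks, at 76.5% against 34.1% on autosomes. Their median area was not low, at percentile 59.5 of the FAIRE list against 49.5. The intervals for chromosome X treat its peaks as independent, and whether those peaks cluster in a few regions was not tested. The part of peak area, of the H3K4 lists or of such clusters in the low sharing was not tested. Chromosome Y had 6 ETS1 peaks and none was shared, which allows a share of up to 39.0% by the Wilson interval.

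Single sites show the range of these patterns (mm9 coordinates). The ETS1 peak of highest area, chr6:41504341-41504730, spanned 390 bp, and its FAIRE partner at chr6:41504361-41504810 was the shared FAIRE peak of highest area, with midpoints 50 bp apart. Peaks from 11 of the 16 lists met there, including CBP, TBP, total Pol II and both H3K4 marks. The next ETS1 peaks were of another kind, broad ETS1 over narrow FAIRE. On chromosome 9, chr9:42273721-42274140 spanned 420 bp over a FAIRE peak of 120 bp that ranked 5158, and had neither CBP, TBP nor total Pol II. It did overlap both H3K4 marks, TFIIE, TFIIF and serine 2 phosphorylated Pol II. On chromosome 10, chr10:4961891-4962450 spanned 560 bp over a FAIRE peak of 140 bp that ranked 3948. That site had CBP, TFIIB, TFIIE, TFIIF and both H3K4 marks but no TBP or total Pol II.

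Strong ETS1 peaks without FAIRE also lay in marked chromatin. The highest, chr19:4185001-4185300, ranked 11 in the ETS1 list and overlapped TBP, total Pol II, TFIIB, TFIIE and both H3K4 marks, with the nearest FAIRE peak 5720 bp away. It was followed by chr9:57819911-57820310, with H3K4me3, H3K4me1, serine 5 phosphorylated Pol II and TFIIH and with FAIRE 3340 bp away. The third, chr11:87568131-87568370, had CBP, TFIIA, TFIIB, TFIIE and both marks, with FAIRE 1680 bp away. All 10 ETS1 peaks of still higher area than the first were shared.

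At H3K4me1-only sites, the shared ETS1 peak of highest area was chr13:28643421-28643820, with CBP, TBP, total Pol II, TFIIB and TFIIE and a midpoint offset of 95 bp. The next was chr12:112229761-112229990, over a FAIRE peak of only 40 bp. It had TBP, TFIIB, TFIIE and serine 5 phosphorylated Pol II but no CBP or total Pol II. The third, chr5:37436021-37436310, carried CBP, TBP, total Pol II, TFIIB, TFIIE, TFIIF and TFIIH. These 3 shared peaks ranked 8, 9 and 32 by ETS1 area and lay in 8, 7 and 10 of the 16 lists, with FAIRE counted by definition. The lone H3K4me1-only ETS1 peaks of highest area ranked lower, at 49, 54 and 82, and lay in 4 of 16 lists each. They were chr17:51547781-51548040 with CBP and TFIIB, chr2:164768431-164768700 with CBP and TFIIF, and chr2:101831951-101832190 with TFIIB and TFIIE. None of these 3 had TBP or total Pol II, and their nearest FAIRE peaks lay 470630, 18260 and 1080 bp away.

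The strongest FAIRE peaks were of another sort. The 3 of highest area were lone peaks of 5910 bp at chr17:39979861-39985770, 3440 bp at chr11:3042231-3045670 and 1150 bp at chr2:98506401-98507550. None overlapped any other list. The same held for all 20 lone FAIRE peaks of highest area, 16 of which lay on chromosomes 9, 11 and Y. Of all 10057 lone FAIRE peaks, 33.5% overlapped none of the 14 other lists. After the first shared FAIRE peak, the next by area were chr14:54847021-54847440 and chr8:97125541-97125890, which ranked 178 and 199. Both overlapped CBP, TBP, total Pol II, H3K4me3, TFIIB and serine 5 phosphorylated Pol II, and no H3K4me1.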

How the data were processed

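Peak lists from chromatin immunoprecipitation and from FAIRE were used. The signal in each deposited list is the area under the authors' track over a peak, per the names of the deposited files. Those names record artefact removal, scaling and background subtraction for 15 tracks, and none of these steps for FAIRE. Replicates had been merged before listing, except for CBP, Taf1 and TFIIB (1 replicate each). The submitters' processing notes name build mm9. Aligner, peak caller, threshold and read numbers: not given in the sources used here. The RNA samples, the input and the immunoglobulin control were not analysed here.

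Overlaps, deciles and intervals were computed with Python 3.11.15, numpy 2.4.6, pandas 2.3.3 and scipy 1.17.1, and figures with matplotlib 3.10.9. Matched differences used Mantel-Haenszel weights. All 12 overlap counts compared with bedtools 2.31.1 were equal. The Newcombe and Mantel-Haenszel intervals were tested on simulated independent peaks, which cannot show how they behave when neighbouring peaks are not independent. The Wilson intervals of shares and the intervals of medians were not simulated. Sites named were the 3 peaks of highest area in each set and, for ETS1, in each H3K4me1-only set. The sets, lists and tests were chosen with earlier results of these data known. Alternatives covered the overlap rule, threshold, list length, width, merging, sex chromosomes, ranking and matching. Matching on H3K4 class was planned. Leaving out isolated FAIRE peaks, the differences within single H3K4 classes, chromosome X and the combinations of factors were added after seeing the data. Sites are given by position alone, without sequence or genes, since no mm9 reference was used.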

Additional observations from a re-analysis of the deposited data

How the results depend on the processing

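The shares themselves followed the overlap rule and the list length. ETS1 peaks shared with FAIRE were 35.5% when 50% of the ETS1 peak had to be covered, 52.1% within 500 bp, 41.6% in the upper 50% of both lists, 16.0% with FAIRE cut to 2359 peaks and 48.7% with 200 bp windows. FAIRE peaks shared with ETS1 were 7.36%, 12.0%, 8.86%, 15.6% and 10.9% in the same settings, and 11.2% without isolated FAIRE peaks. The FAIRE area difference was 0.547 points in the upper 50%, -13.6 with FAIRE cut and -3.36 inside 5 groups by width. The H3K4me1 difference of ETS1 peaks was -1.23 points under the 50% rule, -1.52 in the upper 50%, -2.004 with FAIRE cut, -0.392 on autosomes, -2.27 matched on area and -2.01 matched on width. All of these intervals included 0. On chromosome X, 5 of 37 ETS1 peaks had H3K4me1. Median widths of shared and lone ETS1 peaks were 190 and 160 bp in the upper 50%, 160 and 120 bp with FAIRE cut, and 120 bp for lone peaks under the 50% rule. Those of shared and lone FAIRE peaks were 170 and 150 bp, 200 and 210 bp, and 150 bp for shared peaks under the 50% rule. Restricting lists by area also restricts widths by construction. The cause of the other changes was not tested. Within classes, the total Pol II difference of FAIRE peaks in H3K4me3 was -0.215 points in the upper 50%, and the TBP difference of unmarked FAIRE peaks was -7.13 points with FAIRE cut. Another 8 within-class values, of total Pol II, TBP or CBP, lost their call and 2, of TBP at unmarked FAIRE peaks, gained one. The CBP, TBP, total Pol II and H3K4me3 differences of both lists and the H3K4me1 difference of FAIRE peaks kept their sign, with intervals that excluded 0, in all settings run, from 4.73 points for total Pol II to 53.2 points for H3K4me1, both of FAIRE peaks. No paired analysis was possible because each target has a single list. Unknown depth limits all statements on lone peaks.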
